A study of Mus musculus with 12 samples.

Results

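The 9 genes described here encode the GATA factors Gata2, Gata3, Gata4 and Gata6 and the endoderm factors Sox7, Sox17, Foxa1, Foxa2 and Hnf4a. They were taken by symbol from the 57010 genes of the deposited table, and each symbol matched 1 gene. Gata4 was known to be among the leading lower genes of untreated Faf2 knockout cells, so it was chosen by its difference between KO NO and WT NO, and those values are given as a description without a test. Of the 9 genes, 6 were among the 16502 genes that passed a filter on low counts (Gata2, Gata3, Gata4, Gata6, Sox17 and Foxa2), and Sox7, Foxa1 and Hnf4a did not. The libraries come from NE-4C, a mouse line of neural progenitor cells from embryonic brain, and mRNA was measured by bulk RNA-Seq. WT NO and KO NO cells were not induced (day 0), and WT RA and KO RA cells were given 1 µM all-trans retinoic acid (RA) for 24 hours and were collected on day 3. No group was left untreated and collected on day 3. A difference between RA and NO groups, called an RA response below, thus holds RA and time in culture, which cannot be told apart. Each of the 4 groups holds 3 libraries, from 3 independent passages, so their spread is that between passages. KO NO and KO RA both carry the deletion of exon 4 of Faf2, an adaptor for the removal of misfolded proteins from the endoplasmic reticulum. The methods describe 1 knockout line, made by CRISPR/Cas9 from picked colonies, so the genotype and the history of that line cannot be told apart.

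GATA factors bind the core letters GATA through zinc fingers. Gata4 and Gata6 are known for their part in heart and extraembryonic endoderm, and Gata2 and Gata3 for theirs in blood, trophoblast and some neurons of the midbrain, hindbrain and spinal cord. Sox7 and Sox17 are SoxF factors of endoderm and endothelium, Foxa1 and Foxa2 are forkhead factors that open closed chromatin in endoderm and in the floor plate of the neural tube, and Hnf4a is a nuclear receptor of hepatocytes and gut.

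GATA factors are known to act on GATA genes, so the 250 bp before the start of each member's canonical transcript were searched on both strands for 4 words, AGATAA together with TGATAA, besides AGATAG together with TGATAG (build GRCm39, GENCODE mouse M39). A match was found for 3 of the 9 members, Gata2, Gata4 and Sox17. The same letters were found before 26.2% of 21757 protein-coding genes, so a match is common. The matches of Gata2 and Sox17 are shown with 10 bases on each side, 5′ to 3′ on the strand of the gene, with the matched letters in capitals. The Gata2 match lies 116 to 111 bases before the start (chr6:88175187-88175212, plus strand) and the Sox17 match 29 to 24 bases before it (chr1:4566650-4566675, minus strand). Both windows lie whole within annotated exons, among them those of other Gata2 and Sox17 transcripts that start further upstream.
Gata2: cagctatcccTGATAGaaggacagag
Sox17: tggctggcttTGATAAcgtcgtgagc

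Other letters were searched in the same windows. The nuclear receptor half-site AGGTCA was found before Gata6, against 13.1% of all windows. Its direct repeat with a gap of 5 bases (DR5), a pattern known for RA receptors, was found before none of the members and before 1 of the 21757 genes. The forkhead letters TGTTTAC and TGTTTGC were found before Sox17 and Foxa1, against 6.89% of all windows, and the SOX letters AACAAT before no member, against 9.66%. GC content of the members' windows ran from 40.8% (Foxa2) to 73.6% (Gata3). The window of Gata6 also lies whole within annotated exons, and 229 of the 250 bases of that of Gata3 and 44 of that of Hnf4a do. These matches are descriptions of sequence, and no binding was measured.

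Deposited totals were 25189054 to 27513718 counts in WT NO, 20309362 to 23867492 in WT RA, 29350783 to 30738717 in KO NO and 17370069 to 25660576 in KO RA. KO RA replicate 3 stood apart. Its TMM factor was 0.394 against 0.872 to 1.28 in the other libraries, and its share of mitochondrial counts was 23.5% against 9.10% to 17.7%. Values that rest on it are given with and without it where it changes them. Faf2 lay at 21.0, 21.7 and 25.4 CPM (counts scaled to a common library total) in KO NO, below WT NO (50.0, 38.8 and 36.0 CPM). After RA the ranges overlapped, at 36.1, 34.3 and 18.7 CPM in KO RA against 35.1, 37.9 and 49.1 CPM in WT RA, and the table does not separate the deleted exon from the rest of the transcript. All 10 neural progenitor markers, among them Sox2, Nes and Vim, were above the floor of 3 counts in every group, though Sox1 and Fabp7 were at means of 0.220 and 0.268 CPM in KO NO. Being above the floor does not set them apart, since of the 16 genes listed for definitive endoderm 0 to 3 were at the floor in each group. Of the 20 genes listed for primitive and extraembryonic endoderm, 3 to 7 were at this floor in each group. Afp, a secreted product of visceral endoderm, had 0 counts in WT RA, KO NO and KO RA, and Ttr, a carrier protein made by the same tissue, had 0 in WT NO, KO NO and KO RA.

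Levels below are CPM with TMM factors. The deposited counts were scaled from TPM, so a level is per length of transcript and can be compared between genes. All 9 members were low. Their highest level was 21.0 CPM, of Gata3 in KO NO replicate 3. In bulk RNA, fewer cells that express a gene and less RNA per cell cannot be told apart.

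**Figure D1:**
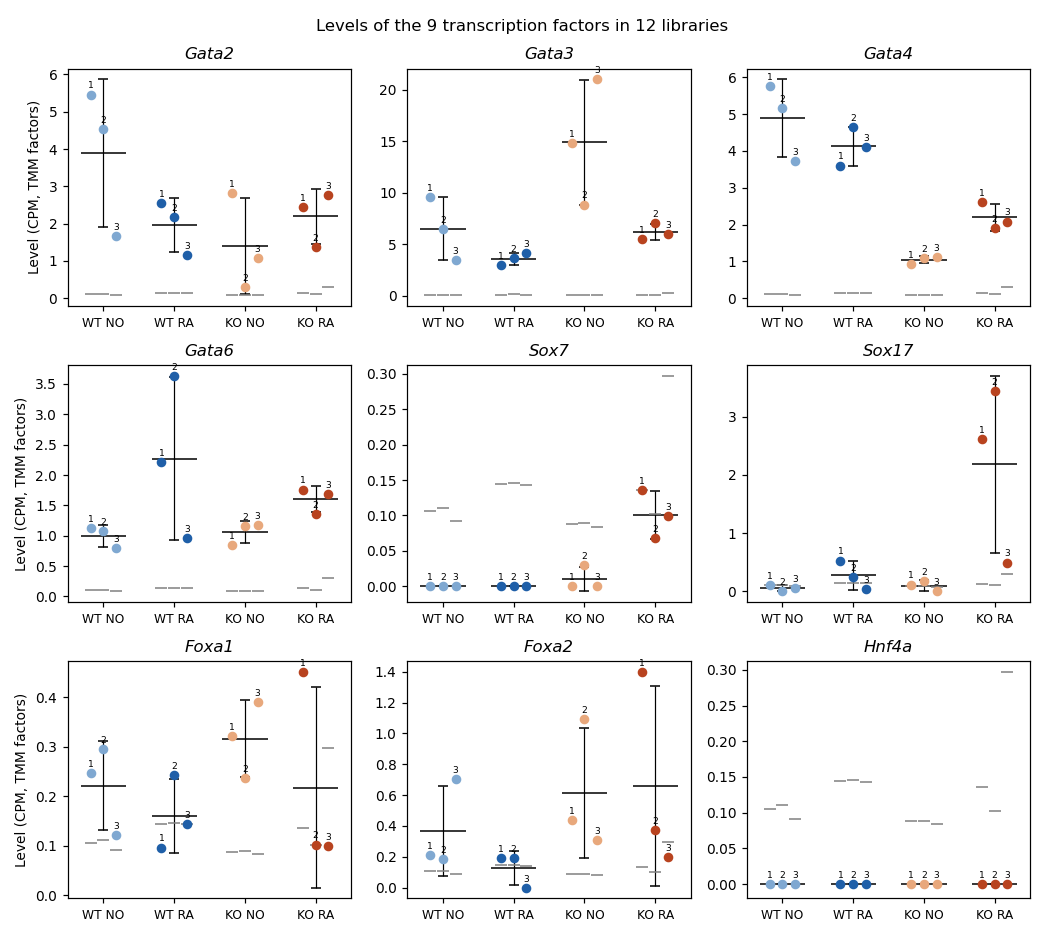
Level of each member (CPM with TMM factors, linear axes with a scale of their own) in the 12 libraries, with points numbered by replicate, black lines for the mean of 3 libraries, bars for the SD and short grey lines for the value of 3 counts in that library. Gata4 lies at 0.937 to 1.12 CPM in KO NO, below its 3.72 to 5.78 CPM in WT NO, Gata3 is the highest member in KO NO, Sox17 reaches 3.44 CPM in KO RA, and Hnf4a is at 0 throughout.

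The order of the members differed between groups. By mean level it ran Gata3, Gata4, Gata2, Gata6, Foxa2, Foxa1, Sox17 in WT NO. Ranges of neighbours in that order were apart between Gata2 and Gata6, between Gata6 and Foxa2 and between Foxa1 and Sox17, and overlapped elsewhere. In WT RA Gata4 came first, at 4.12 ± 0.525 CPM (SD, n = 3), with Gata3 next at 3.62 ± 0.588 CPM and overlapping it. In KO NO Gata3 stood above every other member, at 14.9 ± 6.07 CPM, and Gata4 came behind Gata2 and Gata6 at 1.05 ± 0.0981 CPM, with overlapping ranges. In KO RA Gata3 again stood apart at the top, at 6.21 ± 0.803 CPM, and Gata4, Gata2 and Sox17 followed at 2.20 ± 0.370, 2.19 ± 0.738 and 2.18 ± 1.52 CPM with overlapping ranges.

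Gata4 (ENSMUSG00000021944, chr14:63436362-63509141, minus strand, 7 exons in its canonical transcript) encodes a zinc finger factor of heart and endoderm. In WT NO it lay at 5.78, 5.17 and 3.72 CPM, and in KO NO at 0.937, 1.10 and 1.12 CPM, which rest on 122 to 164 and on 32 to 40 rounded counts. All KO NO libraries were below all WT NO libraries, and the fitted log2 difference was −2.21 (SE 0.29), or 4.64-fold, which is the value that chose the gene. Its SD in KO NO, 0.0981 CPM, was the smallest of its 4 groups.

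After RA, Gata4 lay at 3.61, 4.66 and 4.11 CPM in WT RA and at 2.62, 1.91 and 2.08 CPM in KO RA, libraries that the choice of the gene did not use. All KO RA libraries were below all WT RA libraries. Without TMM factors they overlapped, with KO RA replicate 1 at 3.34 CPM and WT RA replicate 1 at 3.14 CPM. The log2 difference was −0.90 (SE 0.28, 95% interval −1.52 to −0.28) and did not pass edgeR's quasi-likelihood test after Benjamini-Hochberg adjustment over all genes (unadjusted p = 0.00847, adjusted p = 0.150). Over 19 alternative fits the adjusted p ran from 0.0241, with limma-voom, to 0.434, and the log2 difference stayed between −1.01 and −0.77 in the fits that each left out 1 library. Between NO and RA the fitted log2 difference was −0.25 (SE 0.28) in WT cells, with overlapping libraries, and 1.07 (SE 0.29) in KO cells, with all KO RA libraries above all KO NO libraries. Without TMM factors KO RA replicate 3 was at 0.818 CPM, below all KO NO libraries, and the other KO RA libraries stayed above them. Both differences share libraries with the comparison that chose Gata4 and were not tested for this gene.

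Gata6 (ENSMUSG00000005836, chr18:11051565-11086995, plus strand), a relative of Gata4 that acts in primitive endoderm and heart, lay at 1.13, 1.07 and 0.793 CPM in WT NO and at 0.850, 1.16 and 1.17 CPM in KO NO. These ranges overlapped, with a log2 difference of 0.09 (SE 0.46). In WT RA it lay at 2.21, 3.64 and 0.955 CPM, the first 2 above all other libraries. The log2 difference between WT RA and WT NO was 1.18 (SE 0.46, 95% interval 0.16 to 2.20, unadjusted p = 0.0268, edgeR adjusted p = 0.322). In KO RA it lay at 1.76, 1.36 and 1.68 CPM, all above KO NO, with a log2 difference of 0.59 (SE 0.46, edgeR adjusted p = 0.440). Without TMM factors KO RA replicate 3, at 0.662 CPM, was below all KO NO libraries. Between KO RA and WT RA the log2 difference was −0.50 (SE 0.46, 95% interval −1.52 to 0.51, edgeR adjusted p = 0.602), and it was 0.01 without WT RA replicate 2.

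Gata3 (ENSMUSG00000015619, chr2:9861889-9894845, minus strand), a factor of trophoblast, T cells and serotonergic and inhibitory neurons, had the highest mean of all members in WT NO, KO NO and KO RA. In WT NO it lay at 9.58, 6.51 and 3.45 CPM and in KO NO at 14.9, 8.86 and 21.0 CPM. WT NO replicate 1 was above KO NO replicate 2, so the ranges overlapped, and the log2 difference was 1.20 (SE 0.39). After RA, Gata3 lay at 5.51, 7.09 and 6.05 CPM in KO RA, above all WT RA libraries (3.03, 3.64 and 4.20 CPM). Without TMM factors KO RA replicate 3 was at 2.38 CPM, below all WT RA libraries, and the other KO RA libraries stayed above them. That log2 difference was 0.78 (SE 0.39, 95% interval −0.09 to 1.64, edgeR adjusted p = 0.325).

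All KO RA libraries were also below all KO NO libraries for Gata3. The log2 difference was −1.26 (SE 0.39, 95% interval −2.12 to −0.40, unadjusted p = 0.00780) and missed the threshold of 0.05 with an edgeR adjusted p of 0.0859. It passed with DESeq2 (adjusted p = 0.0357), with limma-voom (adjusted p = 0.0335) and in edgeR without WT NO replicate 3 (adjusted p = 0.0494), and the range over 19 alternatives was 0.0335 to 0.285. In WT cells the log2 difference between RA and NO was −0.84 (SE 0.39, 95% interval −1.70 to 0.02, edgeR adjusted p = 0.408), with overlapping libraries.

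Gata2 (ENSMUSG00000015053, chr6:88170559-88184018, plus strand), a factor of blood progenitors, endothelium and inhibitory neurons, was among the most variable members within groups. It lay at 5.46, 4.55 and 1.68 CPM in WT NO and at 2.81, 0.296 and 1.09 CPM in KO NO. KO NO replicate 1 was above WT NO replicate 3, and the log2 difference was −1.47 (SE 0.70). In WT RA it lay at 2.55, 2.18 and 1.15 CPM and in KO RA at 2.44, 1.36 and 2.78 CPM. The ranges overlapped in all comparisons. The log2 difference was 0.15 (SE 0.70, 95% interval −1.40 to 1.70) between KO RA and WT RA, −0.99 (SE 0.70, −2.52 to 0.55) between WT RA and WT NO and 0.63 (SE 0.70, −0.91 to 2.18) between KO RA and KO NO, with edgeR adjusted p of 0.936, 0.637 and 0.598. The intervals are wide, and each holds differences of over 1 log2 unit in at least 1 direction, so such differences in Gata2 are not excluded.

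Sox17 (ENSMUSG00000025902, chr1:4561151-4567784, minus strand), a SoxF factor of definitive endoderm and arterial endothelium, was near the floor except in KO RA. In WT NO its rounded counts were 3, 0 and 2, all at the floor, so no fold change against WT NO is given. In KO NO it lay at 0.117, 0.178 and 0 CPM and in WT RA at 0.529, 0.242 and 0.0478 CPM. In KO RA it lay at 2.62, 3.44 and 0.496 CPM, which rest on 58, 101 and 5 rounded counts. The lowest of these is KO RA replicate 3, the library that stood apart, and it was above all KO NO libraries and below WT RA replicate 1. Without TMM factors it was level with KO NO replicate 2, at 0.195 CPM in both.

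Between KO RA and KO NO the log2 difference of Sox17 was 4.44 (SE 1.22, 95% interval 1.76 to 7.12, unadjusted p = 0.00381) and missed the threshold with an edgeR adjusted p of 0.0593. It passed in edgeR without KO RA replicate 3 (log2 difference 4.88, adjusted p = 0.0171), with DESeq2 (adjusted p = 0.00167) and with limma-voom (adjusted p = 0.00122). Over the 17 of 19 alternatives that gave a value, the adjusted p ran from 0.00122 to 0.198. Between KO RA and WT RA the log2 difference was 3.00 (SE 1.14, 95% interval 0.49 to 5.50, edgeR adjusted p = 0.223), and over 18 alternatives the adjusted p ran from 0.00587, with limma-voom, to 0.457. Between WT RA and WT NO the edgeR adjusted p was 0.529. Sox17 passed the filter largely through KO RA, the group where it was highest, and had 4, 6 and 0 rounded counts in KO NO. The p-values of its comparisons with KO RA are thus given as a description.

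Sox7 (ENSMUSG00000063060, chr14:64181006-64188352, plus strand), the other SoxF member and a factor of parietal endoderm and endothelium, was never above 3 rounded counts in a library. It had 0 rounded counts in all WT NO and WT RA libraries, 0, 1 and 0 in KO NO and 3, 2 and 1 in KO RA. Every group was at the floor, so no fold change is given and a difference was not detectable at this depth.

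Foxa2 (ENSMUSG00000037025, chr2:147884797-147889005, minus strand), a forkhead factor of endoderm, node and floor plate, lay at 0.211, 0.185 and 0.702 CPM in WT NO and at 0.439, 1.10 and 0.307 CPM in KO NO. In WT RA it lay at 0.192, 0.194 and 0 CPM, with at most 4 rounded counts in a library, and in KO RA at 1.40, 0.375 and 0.198 CPM. All KO RA libraries were above all WT RA libraries, but by 0.198 against 0.194 CPM at the nearest, and without TMM factors they overlapped. That log2 difference was 2.34 (SE 1.09, 95% interval −0.06 to 4.75, edgeR adjusted p = 0.294). In the other comparisons the libraries overlapped, with log2 differences of 0.73 (SE 0.99) for KO NO over WT NO, −1.48 (SE 1.08, edgeR adjusted p = 0.653) between WT RA and WT NO and 0.13 (SE 0.98, edgeR adjusted p = 0.944) between KO RA and KO NO. Without KO RA replicate 1, the highest library, the last of these was −1.01.

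Foxa1 (ENSMUSG00000035451, chr12:57587414-57593702, minus strand), a close relative of Foxa2, lay between 0.0961 and 0.451 CPM in all 12 libraries and did not pass the filter. Its group means ran from 0.161 ± 0.0747 CPM in WT RA to 0.317 ± 0.0771 CPM in KO NO, and these 2 groups overlapped at 0.242 and 0.237 CPM. Hnf4a (ENSMUSG00000017950, chr2:163348728-163414830, plus strand) had 0 counts in all 12 libraries, which allows up to 3 counts in each, or 0.0838 to 0.297 CPM.

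Counted together, 0 of 6 members were called by edgeR between KO RA and WT RA, where 1.24% of all genes tested were called. At an unadjusted p under 0.05 there were 2 (Gata4 and Sox17), where 17.6% of all genes were, and DESeq2 called 0 and limma-voom the same 2 members, where they called 7.94% and 18.1% of all genes. Libraries did not overlap for 3 of the 6 (Gata3 and Foxa2 above, Gata4 below), against 20.9% of all genes (9.97% above and 10.9% below), and without TMM factors for 0 of them, against 13.9%. Between WT RA and WT NO, 0 of the 5 members other than Gata4 were called, against 0.406% of all genes. At an unadjusted p under 0.05 there was 1 (Gata6), against 12.5%, and DESeq2 and limma-voom called 0, against 5.58% and 21.6%. No member's libraries were apart, against 29.1% of all genes (15.1% above and 14% below), and without TMM factors Gata3 and Foxa2 were below, against 33.3% of all genes apart (7.79% above and 25.5% below).

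Between KO RA and KO NO, edgeR called 0 of the 5 members other than Gata4, where it called 5.48% of all genes. At an unadjusted p under 0.05 there were 2 (Gata3 and Sox17), against 25.2% of all genes, and DESeq2 and limma-voom each called these 2, where they called 15.9% and 27.5% of all genes. Libraries were apart for 3 of these 5 (Gata6 and Sox17 above, Gata3 below), against 30.2% of all genes (13.2% above and 17% below). Without TMM factors they were apart for Gata3 alone of these 5, against 24.6% of all genes. Between KO NO and WT NO, the comparison that chose Gata4, edgeR called 1.14% of all genes and libraries were apart for 30.7%. The place of Gata4 among them was fixed by its choice, so no call of a member is read there, and the libraries of the other 5 members overlapped. The filter asked for enough counts in at least 3 libraries, of whichever group, so these counts describe 6 of the 9 members. Sox17 had its highest rounded counts in KO RA replicates 1 and 2 (58 and 101), followed by WT RA replicate 1 (11). It thus passed largely through KO RA, the group where it was highest.

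**Figure D2:**
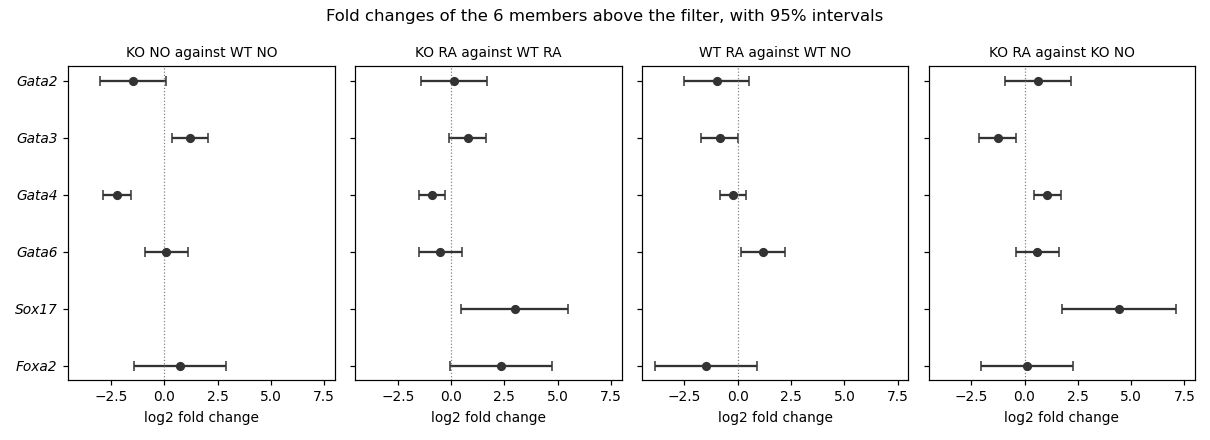
Log2 fold changes of the 6 members that passed the filter in 4 comparisons, with 95% intervals from the edgeR fit (points to the right of the dotted line are higher in the first group named). Sox17 is left out of the comparisons with WT NO, where it was at the floor, Gata4 lies at −2.21 between untreated genotypes and at −0.90 after RA, and most other intervals cross 0.

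The fit also gives how far the RA response of KO cells lay above or below that of WT cells, on a log2 scale and without a test because it holds the comparison that chose Gata4. It was 1.31 for Gata4 (SE 0.40), 1.62 for Gata2 (SE 0.99) and 1.61 for Foxa2 (SE 1.45). It was −0.42 for Gata3 (SE 0.55) and −0.59 for Gata6 (SE 0.65). For Gata4 the difference between genotypes was thus −2.21 untreated and −0.90 after RA. The 4 comparisons share libraries in pairs, so a low library in 1 group moves 2 of them.

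Of the 9 members, 3 lie on chromosome 2 and 2 on chromosome 14, where Sox7 starts 672 kb beyond the end of Gata4. The 7 tested genes that start within 500 kb of Gata4 were set beside it. Their median log2 difference was −0.25 for KO NO over WT NO and −0.23 between KO RA and WT RA. Over the 581 tested genes of chromosome 14 it was −0.02 and 0.14. Between untreated genotypes they ran from −1.11 for Fam167a to 1.95 for Tdh, a mitochondrial enzyme of threonine breakdown, with Gata4 at the value that chose it. After RA, Fam167a was at 1.38, the other 6 genes lay between −0.37 and −0.03, and Gata4 lay at −0.90.

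**Figure D3:**
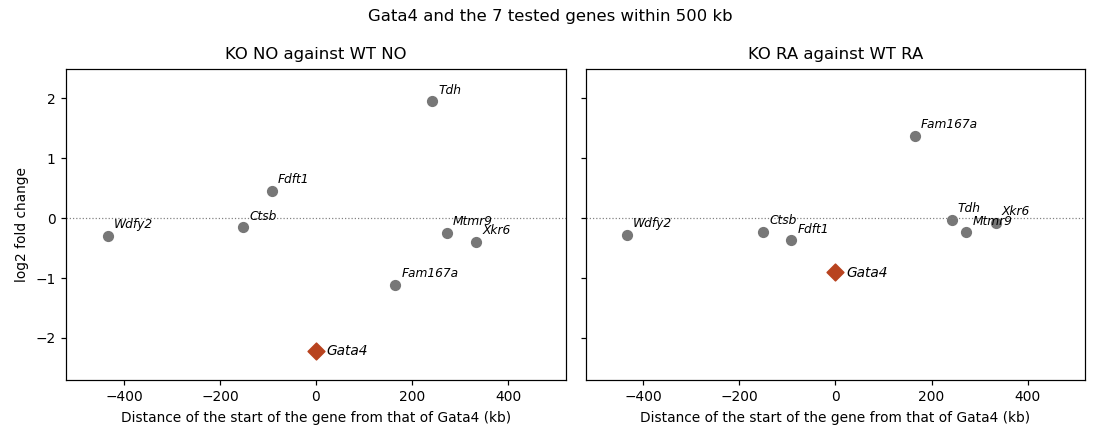
Log2 fold change (vertical axis) of Gata4, as a red diamond, and of the 7 tested genes that start within 500 kb of it, as grey points, against the distance of their starts from that of Gata4 in kb. Gata4 lies at −2.21 between untreated genotypes, the value that chose it, and at −0.90 after RA, where the 7 neighbours run from −0.37 to 1.38.

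For each of the 6 members, the 3 tested genes with the most similar levels were taken by Pearson's correlation of log2 CPM over the 12 libraries (value without KO RA replicate 3 in brackets). For Gata4 they were Slc9a3r2 at 0.97 (0.97), Mcur1 at 0.94 (0.94) and Rab31 at 0.94 (0.94). For Gata3 they were Eif2d at 0.91 (0.94), Slc7a11 at 0.90 (0.90) and Epb41l5 at 0.90 (0.92), and for Gata6 Irf2bp2 at 0.86 (0.86), Hgsnat at 0.84 (0.85) and Upk3b at 0.83 (0.84). For Sox17 they were D7Ertd443e at 0.94 (0.94), Hivep2 at 0.93 (0.93) and Barhl2 at 0.91 (0.91), and for Foxa2 Ttll7 at 0.91 (0.90), Fam161b at 0.89 (0.89) and Rtl8c at 0.86 (0.86). For Gata2 they were the pseudogenes Rps12-ps1 at 0.87 (0.92) and Rps6-ps2 at 0.80 (0.83), whose reads can be shared with their parent genes, and Pcdh17 at 0.82 (0.82). These are the highest of all tested genes, over points that share libraries and groups, and serve as a description. Between the members themselves the correlation was lowest for Gata3 and Gata4 at −0.67 and highest for Gata2 and Gata4 at 0.56, with Gata6 and Sox17 at 0.44.

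Genes that work with these factors or mark the tissues they act in were read from 10 lists. A list's count is to be read beside the shares of all genes that edgeR called, which were 0.885% higher and 0.358% lower between KO RA and WT RA, 0.321% higher and 0.0848% lower between WT RA and WT NO, and 3.89% higher and 1.59% lower between KO RA and KO NO. In the same order, an unadjusted p under 0.05 was seen for 10.9% higher and 6.67% lower, 6.76% and 5.79%, and 15.8% and 9.42% of all genes. DESeq2 called 5% higher and 2.94% lower, 3.09% and 2.49%, and 9.94% and 6.01%, and limma-voom 9.79% and 8.31%, 10.8% and 10.8%, and 15.1% and 12.3%. The median log2 difference of all genes was 0.09, −0.01 and 0.11 in these comparisons, and −0.02 in the last without KO RA replicate 3.

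Of 10 other GATA factors and cofactors, 8 were tested, and Gata1 and Gata5 did not pass the filter. EdgeR called 0 of them in each comparison. At an unadjusted p under 0.05 there were 2 higher between KO RA and WT RA, 2 lower between WT RA and WT NO and 3 higher between KO RA and KO NO, with 3, 1 and 3 called by DESeq2 and 3, 2 and 4 by limma-voom in the same directions. The medians were 0.44, −0.20 and 0.52. Tal1 and Lmo2, blood factors that form complexes with Gata2, were singled out after their values were seen. Tal1 lay at 1.17 ± 0.140 CPM in KO RA, 0.0967 ± 0.0970 in WT RA, 0.777 ± 0.0925 in WT NO and 0.278 ± 0.140 in KO NO, with an edgeR adjusted p of 0.0677 between KO RA and WT RA. Lmo2 lay at 7.51 ± 3.23 CPM in KO RA and 2.92 ± 0.617 in KO NO, with an edgeR adjusted p of 0.0553.

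Of 10 SoxF, FoxA and hepatocyte nuclear factor relatives, 7 were tested. EdgeR called 0 between KO RA and WT RA (1 at an unadjusted p under 0.05, 0 by DESeq2, 2 by limma-voom, all higher) and 0 between WT RA and WT NO (0 by each of the other counts too). Between KO RA and KO NO it called 1 higher, Onecut1, a homeobox factor of liver and neurons. Onecut1 lay at 0.0586, 0.0296 and 0.0558 CPM in KO NO, all at the floor, and at 1.49, 0.307 and 0.0991 CPM in KO RA (edgeR adjusted p = 0.0472). The KO RA values rest on 33, 9 and 1 rounded counts, so the third of these libraries was at the floor too. In WT cells Onecut1 lay at 0.810, 1.26 and 0.549 CPM without RA and at 0.240, 0.436 and 0.478 CPM after it. The call held in 3 of the 12 fits that left out 1 library, those without WT NO replicate 3 and without KO RA replicates 2 or 3. The medians were 1.39, −0.45 and 1.04, and the first was 0.75 with Foxa3, at the floor in WT RA, set at its bound.

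Of 20 genes of primitive and extraembryonic endoderm, 13 were tested, with medians of 0.42, 0.20 and 0.50. Serpinh1, a collagen chaperone, was the 1 gene called higher between KO RA and WT RA, with 0 lower. It lay at 292, 213 and 328 CPM against 46.2, 86.7 and 48.6 CPM, with a log2 difference of 2.20 (SE 0.43, edgeR adjusted p = 0.0376). Lrp2, an endocytic receptor of visceral endoderm and neuroepithelium, fell with RA in both genotypes. It went from 27.3, 30.5 and 34.0 to 5.58, 10.9 and 8.69 CPM in WT cells (log2 difference −1.87, SE 0.32, edgeR adjusted p = 0.0369) and from 35.0, 18.7 and 39.6 to 12.7, 10.9 and 9.12 CPM in KO cells (−1.51, SE 0.32, edgeR adjusted p = 0.0219). The 1 gene called higher between KO RA and KO NO was Col4a2, a basement membrane collagen chain, with a log2 difference of 1.00 (SE 0.26, edgeR adjusted p = 0.0483). Of the 12 fits that each left out 1 library, the calls of Serpinh1 and Col4a2 held in 5 and 3, and those of Lrp2 in 2 in WT and 10 in KO cells.

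Of 16 genes of definitive endoderm, 15 were tested. EdgeR called 0 between KO RA and WT RA (at an unadjusted p under 0.05, 4 higher and 3 lower, 1 and 3 by DESeq2, 3 and 3 by limma-voom). It called 0 between WT RA and WT NO (1 higher and 4 lower unadjusted, 0 and 2 by DESeq2, 1 and 1 by limma-voom). Between KO RA and KO NO it called 2 lower and 0 higher, Nodal and Cldn6. Nodal, the ligand that induces endoderm, fell from 76.5, 84.7 and 67.6 to 23.2, 22.9 and 12.2 CPM (log2 difference −1.97, SE 0.30, edgeR adjusted p = 0.00575). Cldn6, a tight junction protein of early epithelia, fell from 22.3, 8.77 and 11.6 to 1.13, 1.98 and 0.991 CPM (−3.35, SE 0.52, edgeR adjusted p = 0.00583). Both calls held in all 12 fits that left out 1 library. Both genes were also lower in all WT RA than in all WT NO libraries, though not called. Those log2 differences were −0.87 (SE 0.29) for Nodal and −2.04 (SE 0.52) for Cldn6, with edgeR adjusted p of 0.247 and 0.129. Untreated, Cldn6 lay at means of 14.2 CPM in KO NO and 2.39 in WT NO (log2 difference 2.57, SE 0.49). The medians were 0.72, −0.32 and −0.32, and the first was 0.35 with Krt19, Gsc2 and Mixl1 set at their bounds. The second was −0.34 in the same way.

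Of 12 heart partners of Gata4 and Gata6, 6 were tested. EdgeR called 0 between KO RA and WT RA (2 higher at an unadjusted p under 0.05, 0 by DESeq2, 1 higher by limma-voom) and 0 between WT RA and WT NO (1 higher and 2 lower unadjusted, 1 and 1 by DESeq2, 2 and 1 by limma-voom). With RA in KO cells it called 1 higher, Hand2, a factor of heart, limb and sympathetic neurons. Hand2 rose from 0.0586, 0.0296 and 0 CPM, at the floor, to 2.17, 1.87 and 6.44 CPM (edgeR adjusted p = 0.0110). The call was lost without any 1 of the KO NO libraries. In WT cells Hand2 was also higher after RA, at 1.25, 0.679 and 0.239 CPM against 0, 0 and 0.0916 CPM, at the floor (edgeR adjusted p = 0.149). The medians were 0.88, 0.54 and 2.30.

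Of 12 endothelial and blood partners, 9 were tested, with medians of 1.40, 0.98 and 2.18. Between genotypes after RA edgeR called 1 higher and 0 lower, Etv2, the factor that starts endothelial and blood fate. It lay at 2.89, 2.08 and 3.57 CPM against 0.337, 0.291 and 0.287 CPM (log2 difference 3.20, SE 0.49, edgeR adjusted p = 0.0152). The call was lost without any 1 of the WT RA libraries. Untreated, Etv2 lay at means of 0.846 CPM in WT NO and 1.12 in KO NO. Its log2 difference with RA was −1.46 in WT cells (SE 0.47, edgeR adjusted p = 0.232) and 1.34 in KO cells (SE 0.44, edgeR adjusted p = 0.105). Between WT RA and WT NO edgeR called 0 (3 higher and 1 lower unadjusted, 2 higher by DESeq2 and 2 higher by limma-voom). With RA in KO cells it called 4 higher and 0 lower, with 7 higher in the fit without KO RA replicate 3, which called 8.48% of all its genes higher.

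The ETS factor Fli1 rose from 0.146, 0.118 and 0.0838 to 7.13, 3.34 and 2.38 CPM (log2 difference 5.16, SE 0.61, edgeR adjusted p = 0.00153) in that comparison, called in all 12 fits that left out 1 library. Kdr, a receptor for vascular endothelial growth factor, rose from 0.293, 0.148 and 0.140 to 5.33, 5.18 and 2.38 CPM (4.45, SE 0.97, edgeR adjusted p = 0.0253), and its call was lost without any 1 of the KO NO libraries. Tek, the angiopoietin receptor, and Mecom, a factor of blood stem cells and endothelium, rose by log2 differences of 2.40 (SE 0.57, edgeR adjusted p = 0.0360) and 2.18 (SE 0.54, edgeR adjusted p = 0.0405), called in 2 and 4 of the 12 fits. Fli1, Tek and Mecom were also higher in all WT RA than in all WT NO libraries, though not called. Those log2 differences were 2.43 (SE 0.55), 1.19 (SE 0.58) and 1.57 (SE 0.53), with edgeR adjusted p of 0.0941, 0.439 and 0.250. That of Kdr was −0.56 (SE 0.87), with overlapping WT libraries. The tested genes Pecam1, Flt1 and Kit of this list had overlapping KO RA and KO NO libraries. Their log2 differences were 0.88 (SE 0.71), 0.21 (SE 0.41) and 1.30 (SE 0.55), with edgeR adjusted p of 0.457, 0.768 and 0.174. The defining endothelial markers Cdh5, a junction protein, and Erg, another ETS factor, did not pass the filter and were not tested. Both had 0 counts in all WT NO and KO NO libraries. In KO RA, Cdh5 lay at 2.62, 2.21 and 0.297 CPM (58, 65 and 3 rounded counts), and in WT RA at 0.192, 0.291 and 0.0478 CPM (4, 6 and 1). The third KO RA library, the one that stood apart, was at the floor. It was above WT RA by 0.297 against 0.291 CPM at the nearest. It held fewer counts than WT RA replicates 1 and 2, so that order rests on the TMM factors. Erg lay at 1.63, 1.67 and 0.198 CPM in KO RA (36, 49 and 2 rounded counts) and had 0 counts in WT RA. Both markers, like Sox17, were higher in KO RA replicates 1 and 2 than in replicate 3, and their part in the values of Sox17 was not tested. The summed level of the 12 genes was 25.3 to 58.7 CPM in KO RA, 16.0 to 19.3 in KO NO, 20.3 to 29.9 in WT RA and 8.21 to 11.9 in WT NO.

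Of 14 genes of the neurons that use Gata2 and Gata3, 7 were tested. EdgeR called 0 between KO RA and WT RA (0 at an unadjusted p under 0.05, 0 by DESeq2, 3 higher by limma-voom) and 0 between WT RA and WT NO (2 higher unadjusted, 1 by DESeq2, 2 by limma-voom). With RA in KO cells it called 2 higher and 0 lower. These genes are not named here, and at least 1 of them was no longer called when any 1 of the KO NO libraries was left out. The medians were 1.24, 0.55 and 1.56. Gata2 and Gata3, set beside them, had log2 differences of 0.63 and −1.26 in that comparison.

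Of 12 floor plate genes, which mark the tissue where Foxa2 acts in the neural tube, 5 were tested, with medians of 0.26, 0.33 and 1.63. Shh, the defining signal of the floor plate, had 0 counts in WT RA, KO NO and KO RA. EdgeR called 0 between KO RA and WT RA (at an unadjusted p under 0.05, 2 higher and 1 lower, 1 higher by DESeq2 and 1 by limma-voom) and 0 between WT RA and WT NO (0 by each of the other counts too). With RA in KO cells it called 1 higher, the guidance cue Ntn1, which rose from 1.79, 2.19 and 2.18 to 7.22, 7.39 and 8.82 CPM (log2 difference 1.92, SE 0.33, edgeR adjusted p = 0.00924) and was no longer called without any 1 of the KO NO libraries.

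Of 10 trophectoderm genes, the tissue where Gata2 and Gata3 act first in the embryo, 7 were tested and edgeR called 0 in each comparison. An unadjusted p under 0.05 was seen for 1 higher and 1 lower gene between KO RA and WT RA, 1 higher between WT RA and WT NO and 1 higher between KO RA and KO NO. DESeq2 called 1 higher and 1 lower, 0, and 1 higher, and limma-voom 2 higher and 1 lower, 1 higher, and 1 higher. The medians were −0.51, 0.56 and −0.24.

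All 10 neural progenitor genes were tested, with medians of 0.50, 0.37 and 1.24. Between genotypes after RA edgeR called 1 higher and 1 lower. Fabp7, a fatty acid binding protein of radial glia, had a log2 difference of 3.89 (SE 0.76, edgeR adjusted p = 0.0376) and Pax6, a factor of dorsal progenitors, one of −2.21 (SE 0.44, edgeR adjusted p = 0.0396), called in 3 and 2 of the 12 fits that left out 1 library. Untreated, Pax6 was also lower in KO cells, at means of 1.30 CPM in KO NO and 7.40 in WT NO (log2 difference −2.50, SE 0.45). Fabp7 lay at 0.268 and 0.464 CPM there (−0.78, SE 0.87), with overlapping libraries. Between WT RA and WT NO edgeR called 0 (4 higher unadjusted, 2 by DESeq2, 4 higher and 1 lower by limma-voom). With RA in KO cells it called 5 higher and 0 lower, led by Fabp7, the progenitor factor Sox1 and the filament protein Vim, with edgeR adjusted p of 0.00157, 0.00373 and 0.00472, all called in each of the 12 fits. Fabp7 rose from 0.146, 0.267 and 0.391 CPM to 155 CPM in KO RA replicate 3 and to 40.6 and 15.6 CPM in the other 2. Sox1 and Vim rose by log2 differences of 5.70 (SE 0.79) and 2.06 (SE 0.30). Fabp7, Sox1 and Vim were also higher in all WT RA than in all WT NO libraries, though not called. Those log2 differences were 3.34 (SE 0.80), 2.59 (SE 0.70) and 0.70 (SE 0.29), with edgeR adjusted p of 0.111, 0.149 and 0.351. The summed level of the 10 genes was 884 to 1017 CPM in KO RA, against 426 to 482 in KO NO, 606 to 795 in WT RA and 538 to 588 in WT NO. Vim was the largest part of it in KO RA (mean 542 CPM, against 130 in KO NO). Between KO RA and KO NO, 8 of the 10 log2 differences were positive and 2 negative, with Otx2 at means of 68.6 against 152 CPM. The sums use TMM factors, and that of KO RA replicate 3 was 0.394.

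**Figure D4:**
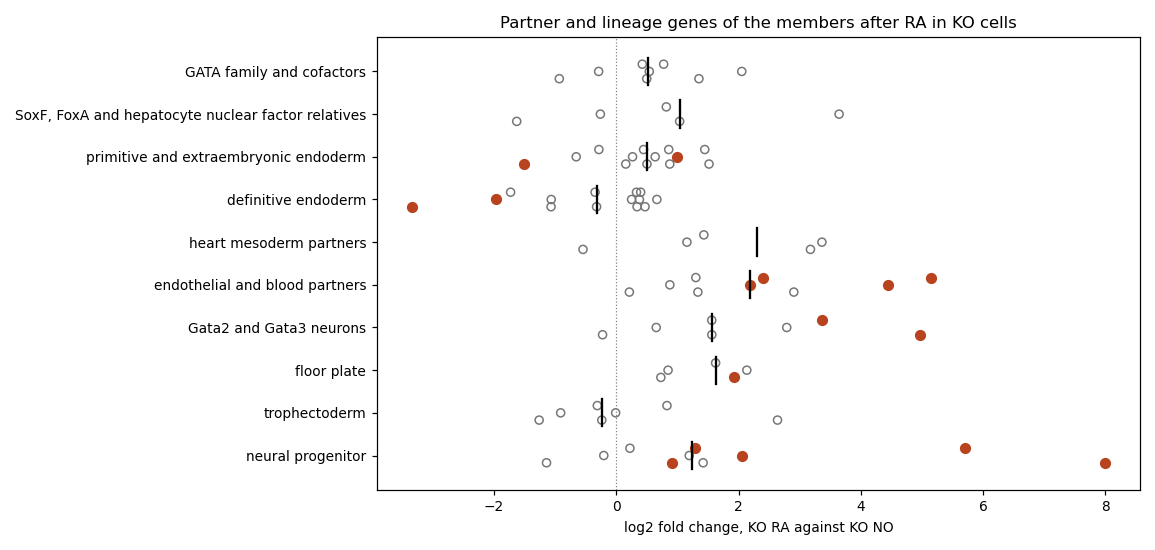
Log2 fold changes between KO RA and KO NO of the tested genes in 10 lists of partners and tissue markers of the members, with genes called by edgeR as filled red points, other genes as open points and the list's median as a black line. Onecut1, Sox18, Hand2 and Gsc2, at the floor in 1 of the groups, are not drawn but stand at their bounds in the medians, and the medians run from −0.32 for definitive endoderm to 2.30 for heart partners.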

How the data were processed

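The authors ran the nf-core/rnaseq pipeline with STAR and Salmon on GRCm39 and deposited estimated counts per gene, scaled from TPM to each library's total. In 3851 genes above 0 in 1 library the deposited value fell with exonic length (Spearman correlation −0.749). Counts were rounded and tested in R 4.3.3 with edgeR 4.0.16: filterByExpr, TMM factors and a robust quasi-likelihood fit with 1 coefficient per group over all 12 libraries (common dispersion 0.215), with Benjamini-Hochberg adjustment over 16502 genes. A gene was called at an adjusted p under 0.05. A group was at the floor when every library had at most 3 counts. Intervals are at 95%.

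Named were all members, the 3 genes most like each (log2 CPM with a prior count of 2), and in each list up to 3 called genes with the smallest adjusted p per tested comparison. Mecom, Tal1 and Lmo2 were added after their values were seen. Other genes, among them Cdh5, Erg, Pecam1, Flt1 and Kit, were also named outside this rule. Members and lists were chosen with earlier results of these data known. Alternatives used DESeq2 1.42.0 and limma 3.58.1 (voom with quality weights), DESeq2's size factors, other filters, fewer libraries and a replicate block. The script was tested on simulated data. Sequence and positions were read with Python 3.11.15 and pysam 0.24.0, and figures drawn with matplotlib 3.10.9. Results of 2 genes called in a list and the sequence before Gata4 are not reported here.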

Additional observations from a re-analysis of the deposited data

How the results depend on the processing

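The count of members called moved with limma-voom to 2 between KO RA and WT RA, to 2 between KO RA and KO NO and to 2 between KO NO and WT NO, where DESeq2 gave 0, 2 and 1. The last of these counts holds Gata4, which that comparison chose, and is a description with no test. Those fits called more of all genes. Of 16502 genes limma-voom called 2987 (18.1%), 4531 (27.5%) and 3566, where the main fit called 205, 904 and 188. In the first 2 of these comparisons DESeq2 called 7.94% and 15.9% of all genes. Leaving out each library in turn gave 0 to 1 members between KO RA and KO NO and left the other counts as they were. There was 1 without WT NO replicate 3 and 1 without KO RA replicate 3, fits that called 1134 and 2776 of all genes. The sign of some small log2 differences turned. For Gata2 between KO RA and WT RA it was −0.057 with limma-voom and −0.13 to 0.45 with 1 library left out (−0.13 without WT RA replicate 3, −0.056 without KO RA replicate 3). For Gata6 between KO RA and WT RA the range was −0.87 to 0.0099 (0.0099 without WT RA replicate 2), and for Foxa2 between KO RA and KO NO −1.01 to 0.83. For Gata6 between KO NO and WT NO it was −0.011 with limma-voom and −0.051 to 0.22 with 1 library left out (−0.051 without WT NO replicate 3). The cause was not tested.

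Libraries with the same replicate number showed no shared deviation (correlations of −0.17 to 0.04), and the main fit used no pairing. Neither the labels nor the methods say whether a passage was shared between groups, and these correlations cannot decide it. With a replicate block edgeR called 0 members between genotypes after RA, with RA in WT cells and with RA in KO cells, as without it. It called 59, 10, 467 and 56 genes in place of 205, 67, 904 and 188 (genotypes after RA, RA in WT, RA in KO, genotypes untreated). Depth limits Sox7, Foxa1 and Hnf4a, which could not be tested, and Sox17 and Foxa2, which had at most 3 counts in some libraries and gave no value with at least 10 counts in every library.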
